A study of Mus musculus with 4 samples.

Results

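The 7 genes described here are *Hes1*, *Hes5*, *Hes6*, *Hey1* and *Hey2*, which encode basic helix-loop-helix repressors of the Notch pathway, *Rbpj*, which encodes the DNA-binding partner of the cleaved Notch receptor, and *Rest*, which encodes a repressor of neuronal genes. GENCODE release M21 lists 21938 genes that code for proteins, of which these are 7. Their chromatin was read from ATAC-seq peaks, which are sites where transposase cuts the genome more often than around them, in the gene bodies and 50 kb on each side (mouse build mm10). These windows covered 934 kb. For the SMC lines they held 70 of 91057 peaks (line 1) and 115 of 153954 (line 2). For the Non-SMC lines they held 92 of 115837 (line 1) and 108 of 128710 (line 2). Joined where they overlapped, these peaks made 257 of the 357570 regions of the genome.

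The study set SMC (NCAMhi CD44lo/-) cell lines beside Non-SMC (NCAMlo CD44hi) cell lines to ask how the chromatin of the cell types differs. All 4 lines were sorted from lung tumors of Rb1 L/L, Trp53 L/L mice of mixed C57Bl/6, Balb-c and S129 background, in which Cre was delivered to the airways by adenovirus, so the Non-SMC lines come from the same genotype as the SMC lines. The lines were grown untreated in RPMI1640 with serum. The lines of each type are numbered 1 and 2, and the labels do not say whether a number ties an SMC line to a Non-SMC line. There was 1 library per line and 2 lines per type, and the sources used here do not say whether the lines come from different mice. With 2 lines against 2, an exact permutation test cannot give a two-sided p below 0.33, so no difference below could pass that test, the only one applied here.

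When a Notch receptor is cleaved, its inner part enters the nucleus and turns RBPJ from a repressor into an activator. HES and HEY proteins are the best known products of this switch, and they shut off proneural genes. HES6 is the exception in the family, since it hinders HES1 and favours neural differentiation. REST keeps neuronal genes silent in other cells, and in small cell lung cancer the Notch pathway and REST are known for opposing the neuroendocrine state.

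The libraries differed in depth, with an implied 8360000 to 29350000 reads, the fewest in SMC line 1. Heights are therefore given as scaled pileup, the number of fragments at the summit in multiples of the genome background of the same library. Fold enrichment divides the same number by the local background and is given where it bears on a result. A site without a peak is not a closed site, only a site under the listing limit. In a stretch at the genome background this limit was a scaled pileup of 6.58 and 3.25 for SMC lines 1 and 2 and of 3.37 and 4.70 for Non-SMC lines 1 and 2. At 5 times that background it was 13.2, 9.75, 9.42 and 12.5 in the same order.

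The markers mostly followed the labels. In the 6 kb around the 5′ end of a gene, *Chga* and *Epcam* had peaks in the SMC lines alone. *Insm1* also had them in Non-SMC line 1, and *Ncam1* and *Syp* in all 4. The promoter of *Cd44* had its highest peak at percentile 94.4 and 98.4 of the Non-SMC lists, at 43.1 in SMC line 2 and none in SMC line 1. *Vim* had a peak in all 4 libraries and *Axl* in 3. Of 4 markers of other cells, *Ptprc* (blood) had a peak in Non-SMC line 1, *Sftpc* (alveoli) in SMC line 1, *Pecam1* (endothelium) in both Non-SMC lines and *Scgb1a1* (airway) in none, and their part in the results below was not tested.

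Across the 7 windows, regions open only in Non-SMC lines outnumbered those open only in SMC lines. Regions that both lines of a single type shared, with no peak in the other type, are named SMC-only or non-SMC-only after that type. Of the 257 regions, 22 (8.56%) were non-SMC-only, and in the whole genome 7.33% were. SMC-only regions numbered 6 (2.33%, genome 4.37%). Regions with a peak in all 4 libraries numbered 17 (6.61%, genome 3.81%), and 187 rested on a peak of a single library. With the stricter peaks of -log10 q of at least 5, 12 of 68 regions were non-SMC-only (17.6%, genome 20.1%) and 2 were SMC-only (2.94%, genome 6.12%). The excess of non-SMC-only regions in these windows is thus also seen in the genome as a whole.

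*Rbpj*, by far the longest window, held 10 of the 22 non-SMC-only regions, *Hes1* 5, *Rest* 4 and *Hes6* 3. As shares of the regions of each window these were alike, at 11.9% for *Rbpj*, 11.4% for *Hes1*, 11.8% for *Rest* and 8.57% for *Hes6*, while *Hes5*, *Hey1* and *Hey2* held none. The 6 SMC-only regions lay at *Hes1* and *Rbpj*, with 2 each, and at *Hey1* and *Hey2*, with 1 each. *Hes5*, *Hes6* and *Rest* had no SMC-only region.

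The total number of peaks overlapped between the cell types. It averaged 92.5 ± 31.8 for SMC and 100 ± 11.3 for Non-SMC lines (SD, n = 2), a mean log2 ratio of -0.15 (exact permutation test, two-sided, p = 1). Since the lists differ in length, the peaks of a window were also counted per 100000 peaks of the library. On this scale the totals no longer overlapped, with 76.9 and 74.7 for the SMC lines against 79.4 and 83.9 for the Non-SMC lines, a small gap. By gene, the types did not overlap at *Rbpj*, with 12.1 and 22.7 in SMC lines 1 and 2 against 28.5 and 28.7 in the Non-SMC lines. They did not overlap either at *Rest*, with 8.79 and 7.79 against 12.9 and 11.7. Non-SMC lines were above in these 2 genes of 7, and 19.0% of the windows of all protein-coding genes show that order. SMC lines were above at *Hes5*, *Hey1* and *Hey2*, an order that 19.9% of all windows show. At *Hey2* the values were 5.49 and 5.85 against 4.32 and 4.66. The types overlapped at *Hes1* and *Hes6*. Without this scaling only *Rest* separated them, with 8 and 12 peaks against 15 and 15. In covered bases, the lines of a type shared more of the windows than lines of different types. The shared part of all covered bases was 0.253 for the SMC lines and 0.345 for the Non-SMC lines, and between 0.174 and 0.192 across types.

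**Figure D1:**
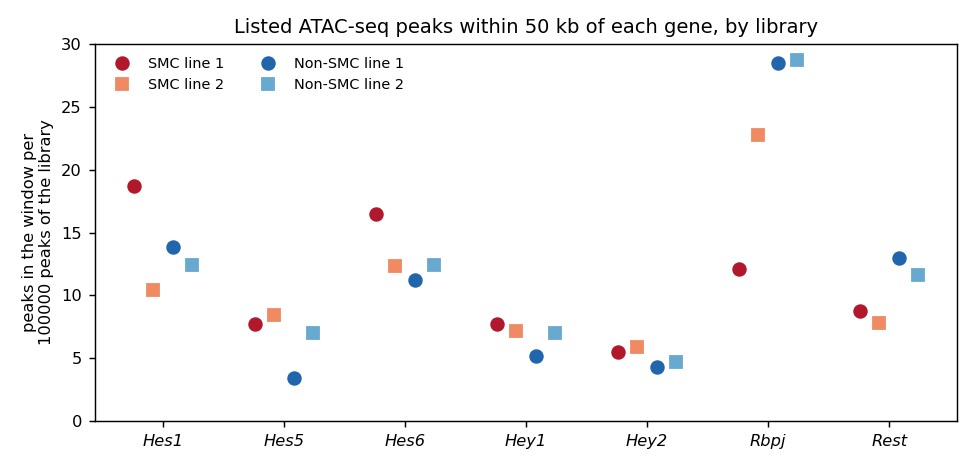
Number of listed peaks in the gene body and 50 kb on each side of each of the 7 genes, per 100000 peaks of the library (vertical axis), with 1 point per library (SMC lines 1 and 2 red and orange, Non-SMC lines 1 and 2 dark and light blue; circles line 1, squares line 2). The Non-SMC lines lie above both SMC lines at *Rbpj* and *Rest*, and SMC line 1 is the lowest point at *Rbpj* with 12.1.

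*Rbpj*, the nuclear factor on which the Notch signal converges, spans 191 kb on chromosome 5, and the larger contrasts between the types lay in its introns. The region that covers 3 of its protein-coding starts, with its summit 123.2 kb inside the 5′ end of the gene, had scaled pileups of 46.0 and 19.5 in the SMC lines and of 33.7 and 42.3 in the Non-SMC lines, with line 1 given before line 2 here and below. Over the region as a whole the types overlapped, but the summit of the 46.0 in SMC line 1 lay 871 bp from the nearest coding start. Within 500 bp of the coding starts at bases 53590368 and 53590471 the values were 32.9 and 19.5 against 33.7 and 42.3. Fold enrichment there was 6.16 and 6.28 against 7.47 and 8.28. At these starts both Non-SMC lines were thus above both SMC lines, in scaled pileup by a narrow gap. No library had a peak within 500 bp of the outermost start at the 5′ end of the gene, and at a further coding start SMC line 2 alone had a peak, with 4.55. Of the 10 non-SMC-only regions, 8 lay in introns of *Rbpj*. The strongest, at +24.6 kb, had scaled pileups of 64.6 and 56.3 in the Non-SMC lines and fold enrichments of 11.7 and 11.1. Both pileups are far over the listing limits of the SMC lines, 13.2 and 9.75 at 5 times the genome background. By mean percentile of fold enrichment it stood above 92.8% of all non-SMC-only regions of the genome. The region at +77.5 kb, next by fold enrichment, had 26.2 and 23.5, and that at +56.6 kb had 33.7 and 18.8. At +122.8 kb, with its summit 1239 bp from the nearest coding start, a non-SMC-only region had 26.2 and 31.3. It ended at base 53589108, close to the region over the coding starts, which had peaks in all libraries and began at base 53589195.

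A further intron region of *Rbpj*, at +43.5 kb, was not called because SMC line 2 had a weak peak in it. Its scaled pileup was 5.20 in that line, 49.8 and 28.2 in the Non-SMC lines, and SMC line 1 had no peak. At -21.9 kb SMC line 1 alone was high, with 35.1, and the types overlapped, since the second lines had 4.55 (SMC) and 6.26 (Non-SMC). Against these stood an SMC-only intron region at +59.7 kb with 13.2 and 15.0. A weaker SMC-only region, at +99.9 kb, had 13.2 and 4.55, and the neighbouring region at +99.4 kb was non-SMC-only with 16.2 and 12.5. The following 201-base stretches around the summits of 2 non-SMC-only regions and 1 SMC-only region (plus strand, mm10) are shown because they carry the contrast within the gene. Capitals mark matches on either strand to the motifs of RBPJ (TGGGAA), of HES factors (N-box CACNAG, and CACGNG), of AP-1 (TGANTCA) and of TEAD (GGAATG).
Rbpj +24.6 kb, non-SMC-only, chr5:53490672-53490872: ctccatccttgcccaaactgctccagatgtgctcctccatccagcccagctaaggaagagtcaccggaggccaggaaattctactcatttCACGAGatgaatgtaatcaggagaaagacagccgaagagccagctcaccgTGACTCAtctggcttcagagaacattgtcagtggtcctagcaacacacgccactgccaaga
Rbpj +77.5 kb, non-SMC-only, chr5:53543510-53543710: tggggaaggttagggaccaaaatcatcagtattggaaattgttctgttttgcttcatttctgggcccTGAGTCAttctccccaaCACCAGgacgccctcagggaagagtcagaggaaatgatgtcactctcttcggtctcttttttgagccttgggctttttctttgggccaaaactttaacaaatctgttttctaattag
Rbpj +59.7 kb, SMC-only, chr5:53525729-53525929: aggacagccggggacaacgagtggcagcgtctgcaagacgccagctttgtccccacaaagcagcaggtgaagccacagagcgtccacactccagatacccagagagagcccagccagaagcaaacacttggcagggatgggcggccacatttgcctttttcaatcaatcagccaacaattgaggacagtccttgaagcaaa
Both non-SMC-only stretches held 1 match to the AP-1 motif and 1 to the N-box, and at +24.6 kb the latter also matches CACGNG. The SMC-only stretch held none of the marked motifs and 3 matches to a SOX motif (ACAANG). This SOX motif is common. Within 100 bp of the summit it was held by 2 of the 6 SMC-only regions (33.3%) and by 49.8% of the SMC-only regions of the genome.

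**Figure D2:**
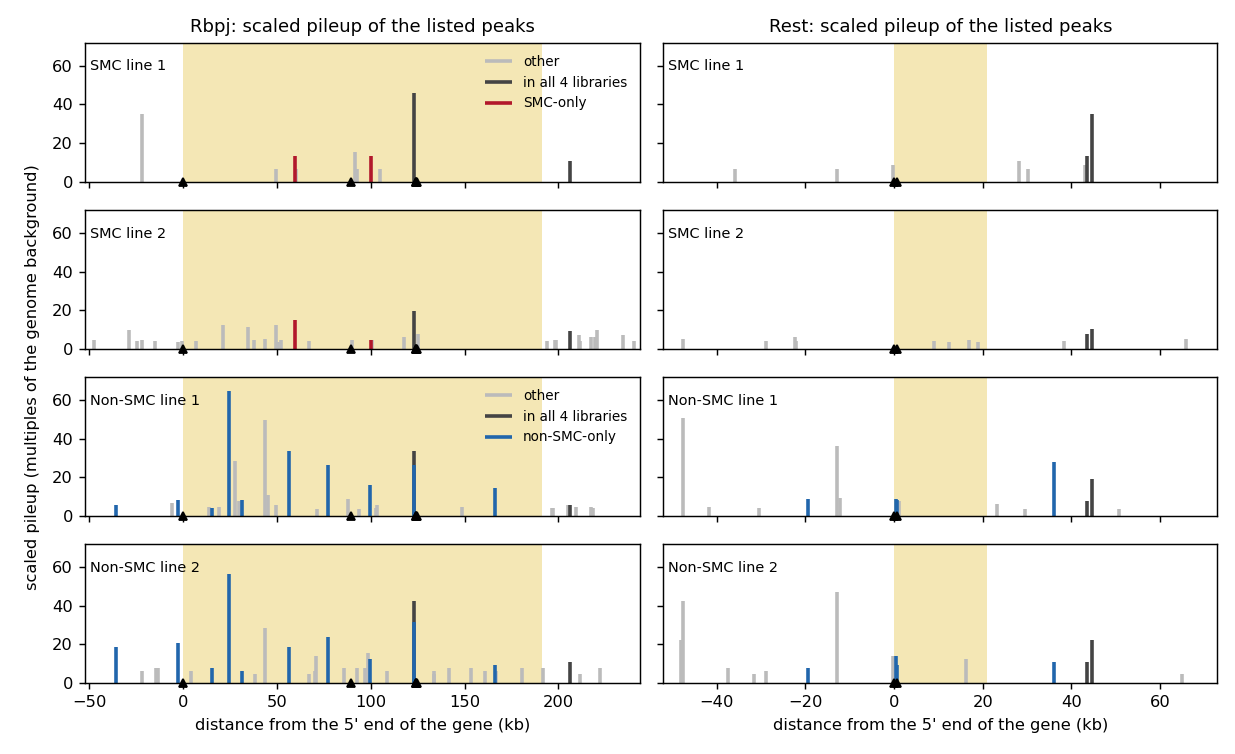
Scaled pileup (vertical axis, multiples of the genome background) of the highest peak of each region against the distance from the 5′ end of the gene in kb, for *Rbpj* (left) and *Rest* (right), with 1 row per library. Lines are red for SMC-only, blue for non-SMC-only, dark grey for regions in all 4 libraries and light grey for others, the shaded band is the gene body and triangles mark starts of protein-coding transcripts; the intron region at +24.6 kb of *Rbpj* reaches 64.6 and 56.3 in the Non-SMC lines and has no line in the SMC rows.

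*Hes1*, the most widely used readout of Notch signalling, had a peak over its coding start in the Non-SMC lines alone. The gene lies on chromosome 16 and its 5′ end is the start of a non-coding transcript, with the protein-coding transcript starting 956 bp further in. Over that coding start the Non-SMC lines had scaled pileups of 38.4 and 42.3, with -log10 q of 22.0 and 10.7. No SMC peak lay within 500 bp of it, where 13.2 and 9.75 would have been listed at 5 times the genome background. The local background at this site was high in the Non-SMC lines, at 6.58 and 6.41 times that of the genome, so the fold enrichment was only 5.38 and 5.50. At -0.3 kb, all 4 libraries had a peak in a region that spans the non-coding start. The peak of SMC line 1 ended at base 30064171, short of that start at base 30064384. The scaled pileups of the region, 26.3 and 11.1 in the SMC lines, overlapped the 22.2 and 34.4 of the Non-SMC lines. The promoter of *Hes1*, taken as 6 kb around the 5′ end of the gene, therefore had a peak in all 4 lines, although its coding start had a listed peak in the Non-SMC lines alone.

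The highest peaks of the *Hes1* window lay at -39.5 kb, in an intron of the non-coding gene *9030404E10Rik*. Their scaled pileups were 68.7 and 78.3 in the Non-SMC lines, with fold enrichments of 16.3 and 15.9. The SMC lines showed no peak at this place. By mean percentile of fold enrichment this region stood above 99.2% of the non-SMC-only regions of the genome. The 3 remaining non-SMC-only regions were lower, with 21.5 and 12.5 at -21.3 kb, 10.8 and 17.2 at -4.9 kb and 15.5 and 17.2 at +26.3 kb. The SMC-only regions lay between them. At -18.6 kb the scaled pileup was 11.0 and 21.5, and at -3.8 kb it was 19.7 and 18.9. At +49.0 kb a weak peak of 4.70 in Non-SMC line 2 kept a region with 19.7 and 17.6 in the SMC lines out of this count. The window thus had distal regions of either type, and the sum of peaks was nearly the same in all libraries, at 17, 16, 16 and 16. Per 100000 peaks of the library the sums were less even, with 18.7 and 10.4 in the SMC lines and 13.8 and 12.4 in the Non-SMC lines. The stretches around the summits of the region of each type that ranked highest by fold enrichment and of the region at +26.3 kb are shown with the same marks.
Hes1 -39.5 kb, non-SMC-only, chr16:30024834-30025034: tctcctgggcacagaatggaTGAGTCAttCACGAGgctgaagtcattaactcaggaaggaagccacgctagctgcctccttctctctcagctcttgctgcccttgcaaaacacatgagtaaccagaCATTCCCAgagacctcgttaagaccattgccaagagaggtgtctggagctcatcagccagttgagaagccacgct
Hes1 +26.3 kb, non-SMC-only, chr16:30090550-30090750: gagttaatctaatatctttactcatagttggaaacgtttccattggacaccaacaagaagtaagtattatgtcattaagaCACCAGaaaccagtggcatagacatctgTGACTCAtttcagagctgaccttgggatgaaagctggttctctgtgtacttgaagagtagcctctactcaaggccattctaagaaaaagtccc
Hes1 -18.6 kb, SMC-only, chr16:30045649-30045849: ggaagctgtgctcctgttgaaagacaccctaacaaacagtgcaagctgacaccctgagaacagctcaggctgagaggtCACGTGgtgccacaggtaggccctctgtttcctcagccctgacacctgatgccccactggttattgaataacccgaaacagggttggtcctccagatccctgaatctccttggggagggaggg
The stretch at -39.5 kb held an AP-1 match close to a site of both HES motifs, and a TEAD match that overlapped an RBPJ match. The stretch at +26.3 kb held AP-1 and N-box matches. The SMC-only stretch held a palindromic E-box (CACGTG, also a CACGNG), a motif that HEY factors bind, and neither AP-1 nor RBPJ matches.

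**Figure D3:**
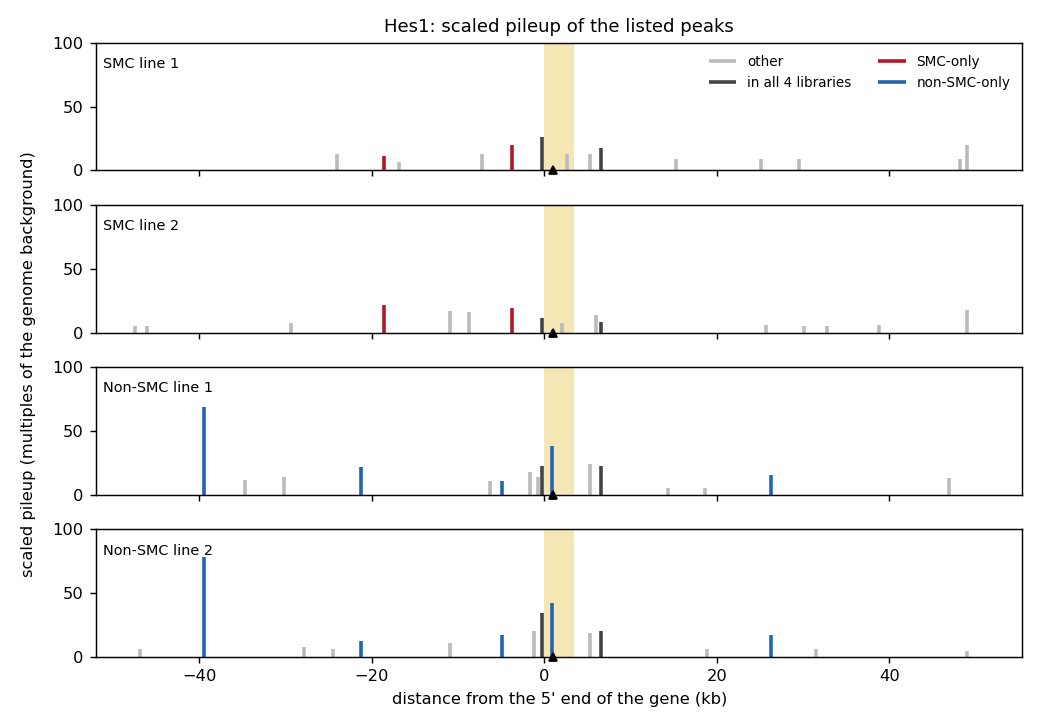
Scaled pileup (vertical axis, multiples of the genome background) of the highest peak of each region in the *Hes1* window against the distance from the 5′ end of the gene in kb, with 1 row per library and lines in red for SMC-only, blue for non-SMC-only, dark grey for regions in all 4 libraries and light grey for others. The shaded band is the gene body and the triangle the coding start; the non-SMC-only lines at -39.5 kb (68.7 and 78.3) and over the coding start (38.4 and 42.3) have no counterpart in the SMC rows.

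*Hes5*, the other classical Notch target of neural cells, had no peak within 500 bp of its start in any library. The only peak that reached its 6 kb promoter window was one of Non-SMC line 1 at +3.2 kb, which lies over the start of the neighbouring gene *Pank4*. The region it belongs to was open in all 4 lines. Its scaled pileups of 17.5 and 16.3 in SMC lines were below the 28.9 and 23.5 of Non-SMC lines. The window held 7 and 13 peaks in the SMC lines and 4 and 9 in the Non-SMC lines. A region at -14.3 kb had 19.7 and 18.9 in the SMC lines, 11.0 in Non-SMC line 2 and no peak in Non-SMC line 1. The 250 bases upstream of the RefSeq start of *Hes5* (GRCm38.p6) are shown because they hold RBPJ sites without a listed peak in any line.
Hes5 promoter, chr4:154960673-154960922, plus strand: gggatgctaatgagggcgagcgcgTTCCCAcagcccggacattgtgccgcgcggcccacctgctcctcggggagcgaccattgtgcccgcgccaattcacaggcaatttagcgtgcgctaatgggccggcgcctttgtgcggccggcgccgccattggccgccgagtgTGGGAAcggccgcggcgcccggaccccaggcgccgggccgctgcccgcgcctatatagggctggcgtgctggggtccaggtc
Both marked sites extend to the longer RBPJ motif GTGGGAA, which 6.38% of the 32851 RefSeq promoters of 300 bases in the same table hold. The shorter motif TGGGAA is held by 25.6%.

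*Hey2*, a HEY repressor known from the heart and vessels, had the highest promoter peak of the 7 genes in the SMC lists. Over its start on chromosome 10 the scaled pileup was 50.4 and 37.1 in the SMC lines and 35.0 and 20.3 in the Non-SMC lines. Both SMC lines were above both Non-SMC lines, by 1.58 times in the mean (43.7 ± 9.44 against 27.7 ± 10.4, SD, n = 2). In fold enrichment the order was lost, with 11.9 and 13.1 against 15.1 and 7.87. The peak ranked at percentile 99.1, 99.3, 98.2 and 91.0 of its lists. At -40.8 kb lay an SMC-only region with 17.5 and 11.7 and -log10 q of 5.43 and 10.9. It was the only SMC-only region of the 6 with a -log10 q of at least 5 in both lines. At +40.0 kb, over the start of *Ncoa7*, a region open in all 4 lines had 39.5 and 22.1 in the SMC lines against 10.1 and 7.83 in the Non-SMC lines. The promoter of *Hey2* and its SMC-only region are shown because the SMC lines had the higher pileup at both.
Hey2 promoter, chr10:30842784-30843033, minus strand: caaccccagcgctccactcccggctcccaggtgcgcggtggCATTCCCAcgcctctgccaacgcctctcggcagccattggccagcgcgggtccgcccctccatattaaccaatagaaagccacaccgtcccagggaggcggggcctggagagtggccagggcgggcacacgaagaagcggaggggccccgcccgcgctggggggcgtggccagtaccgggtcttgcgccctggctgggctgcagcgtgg
Hey2 -40.8 kb, SMC-only, chr10:30883511-30883711: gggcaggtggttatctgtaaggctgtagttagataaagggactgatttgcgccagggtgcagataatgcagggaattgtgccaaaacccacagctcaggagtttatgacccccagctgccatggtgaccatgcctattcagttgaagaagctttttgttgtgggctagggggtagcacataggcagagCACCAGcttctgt
The capitals in the promoter join a TEAD match with an RBPJ match of the long form. The distal stretch held 1 N-box match.

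*Hey1*, its close relative, was open at its start in all lines with no order between the types. The scaled pileup there was 24.1 and 14.3 in the SMC lines and 20.2 and 18.8 in the Non-SMC lines. An SMC-only region at +26.7 kb had 21.9 and 5.85, the latter not far above the listing limit of its line. At +35.5 kb the SMC lines had 13.2 and 11.7 and the Non-SMC lines had no peak and 6.26. A region at +2.46 kb, in an exon of *Hey1*, had peaks in all libraries but SMC line 2, and one at -0.5 kb in all but SMC line 1.

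*Hes6*, the family member that hinders HES1, was open at its coding start in all 4 lines, and more so in Non-SMC lines. The region over the coding start, 816 bp inside the 5′ end of the gene on chromosome 1, had scaled pileups of 37.3 and 26.0 in the SMC lines and of 49.8 and 48.5 in the Non-SMC lines. The types did not overlap, and the SMC mean was 0.643 times the Non-SMC mean (31.6 ± 7.96 against 49.2 ± 0.911, SD, n = 2). In fold enrichment the order was the same, with 6.18 and 6.44 against 11.5 and 11.2. Over the 5′ end of the gene, where a non-coding transcript starts, the order was the opposite, with 21.9 and 16.3 in the SMC lines, 10.1 in Non-SMC line 1 and no peak in Non-SMC line 2. The non-SMC-only regions of the window lay at neighbouring genes, with 36.3 and 18.8 at +51.7 kb, in an exon of *Klhl30*, and 31.6 and 17.2 at -43.9 kb, in an intron of *Per2*. At +12.8 kb the values were 43.1 and 7.83. The sequences upstream of both RefSeq starts are shown since the starts differed between the lines.
Hes6 coding start, chr1:91413223-91413472, minus strand: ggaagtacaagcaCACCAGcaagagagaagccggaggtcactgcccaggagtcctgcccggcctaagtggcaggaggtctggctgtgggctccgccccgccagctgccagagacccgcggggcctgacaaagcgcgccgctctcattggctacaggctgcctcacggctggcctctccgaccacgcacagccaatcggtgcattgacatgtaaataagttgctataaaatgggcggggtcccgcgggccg
Hes6 5′ end, chr1:91414039-91414288, minus strand: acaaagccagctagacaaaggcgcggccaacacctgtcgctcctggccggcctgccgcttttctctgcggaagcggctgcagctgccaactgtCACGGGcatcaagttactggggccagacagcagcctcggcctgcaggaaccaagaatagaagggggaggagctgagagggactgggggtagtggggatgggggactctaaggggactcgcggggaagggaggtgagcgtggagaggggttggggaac
The first held 1 N-box match and the second 1 CACGNG match. Neither held an RBPJ match.

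Over all 17 regions open in every line, both Non-SMC lines had the higher scaled pileup in 4, and in the genome 31.9% of such regions show that order. Both SMC lines were above in 2, and 9.99% of such regions are in the genome. Both of these lay in the *Hey2* window. The types overlapped in the remaining 11, among them the regions at the starts of *Hey1* and *Rbpj*, each taken at its highest peak.

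*Rest* had weak peaks at its starts, and the Non-SMC lines had strong ones further off. Within 500 bp of a coding start the highest scaled pileup was 8.75 and 14.1 in the Non-SMC lines and 8.77 in SMC line 1, while SMC line 2 had no peak. Non-SMC-only regions lay at +0.39 kb, with 8.75 and 14.1, and at +0.753 kb, with 8.08 and 9.39. These values lie above the listing limits of the SMC lines at the genome background, 6.58 and 3.25. At 2 times that background the limits were 8.77 and 5.20. The 8.75 and 8.08 of Non-SMC line 1 lie below the limit of SMC line 1 there, so a missing peak in that line says little. The peak of SMC line 1 near the start stood on a local background of 1.10 times that of the genome. Further away the contrast was larger. At -47.5 kb the scaled pileup was 50.5 and 42.3 in the Non-SMC lines and 5.20 in SMC line 2, with no peak in SMC line 1. At -12.9 kb it was 36.3 and 47.0 in the Non-SMC lines and 6.58 in SMC line 1, with no peak in SMC line 2. A weak peak in 1 SMC line kept both regions out of the non-SMC-only count. They were singled out after their values were seen, as were the regions of *Rbpj*, *Hes1*, *Hes5*, *Hes6* and *Hey1* given above that belong to neither type alone. At +36.2 kb, in an intron of *Noa1*, a non-SMC-only region had 27.6 and 11.0. The start shared by *Noa1* and *Polr2b*, at +44.7 kb, was open in all lines with 35.1 and 10.4 in SMC lines and 18.8 and 21.9 in Non-SMC lines. The stretch at +36.2 kb is shown as the strongest non-SMC-only region of the window.
Rest +36.2 kb, non-SMC-only, chr5:77301567-77301767: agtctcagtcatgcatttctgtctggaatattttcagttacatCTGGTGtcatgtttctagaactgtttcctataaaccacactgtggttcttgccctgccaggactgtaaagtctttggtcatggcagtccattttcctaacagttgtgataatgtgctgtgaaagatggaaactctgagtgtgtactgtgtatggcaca
It held an N-box match and 2 matches to a RUNX motif (TGNGGT), and no AP-1 match.

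The local background, which follows reads within several kb of a peak, moved with some of these results. The median over the peaks of a window was 1.35 and 1.72 times the genome background at *Hes1* in SMC lines 1 and 2, and 3.66 and 1.41 in Non-SMC lines 1 and 2. At *Hes6* it was 1.95 and 1.89 against 3.72 and 2.21. At *Rest* it was 1.06 and 1.03 against 1.52 and 1.84, and at *Hes5* 2.16 and 1.72 against 1.25 and 1.12. At *Rbpj* the median lay between 1.08 and 1.21 in all 4 libraries, but single peaks stood on more. The *Rbpj* region at +24.6 kb stood on 4.92 and 3.65 times the genome background in the Non-SMC lines. The highest local background under a peak of that window was 3.50 and 2.66 in the SMC lines against 5.20 and 3.81. The part of the local background in the pileups was not tested.

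The AP-1 content of the regions was close to that of the genome. Within 100 bp of the summit, 12 of the 22 non-SMC-only regions (54.5%) held the AP-1 motif, and 55.5% of all non-SMC-only regions of the genome did. None of the 6 SMC-only regions held it (genome 6.59%). The RBPJ motif TGGGAA was found in 50 of the 257 regions (19.5%) and in 19.1% of all regions of the genome. The longer form GTGGGAA was found in 23 (8.95%, genome 4.74%). Among the 17 regions open in all lines, 6 held the shorter form (35.3%, genome 17.0%), and those at the 5′ end of *Hes1* and the starts of *Hey1*, *Hey2* and *Rbpj* were among them. The region over the coding start of *Hes1* held 2 RBPJ matches, 1 of them of the long form. N-boxes were found in 12 of the 22 non-SMC-only regions (54.5%, genome 39.3%). That order was reversed within 50 bp (18.2%, genome 23%) and within 250 bp (63.6%, genome 66.3%). TEAD matches were found in 5 of these regions (22.7%, genome 19.3%). RUNX matches were found in 11 (50%, genome 48.9%). The full RE1 element of REST, taken as CAGCACC and GGACAG 2 bases apart, was found in none of the 257 regions and in 71 regions of the genome (0.0199%). A string this rare would hardly be met in 257 regions, so its absence does not tell whether REST sites lie there. A match is a run of letters and not a bound site.

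**Figure D4:**
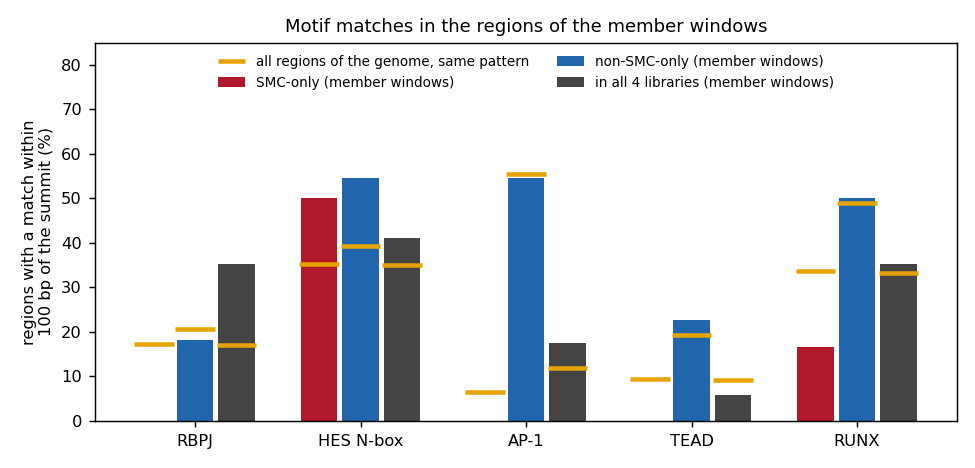
Share of regions in the windows of the 7 genes with a match to each motif within 100 bp of the summit (vertical axis, percent), for the 6 SMC-only regions (red), the 22 non-SMC-only regions (blue) and the 17 regions open in all 4 libraries (dark grey), with no bar where the share is 0. Yellow lines give the share in all regions of the genome of the same pattern; the AP-1 bar of the non-SMC-only regions (54.5%) lies at the yellow line (55.5%).

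The promoters of the 7 genes gave no call for either type. Within 6 kb around the 5′ end, *Hes1*, *Hes6*, *Hey1* and *Hey2* had a peak in all 4 libraries (4 of 7, all protein-coding genes 48.7%), and *Hes5*, *Rbpj* and *Rest* did not. None of the 7 was SMC-only (all genes 3.08%) and none non-SMC-only (2.45%). For the latter 3 genes, the protein-coding genes with the most similar percentiles of promoter fold enrichment over the 4 libraries were sought. *Rest*, at percentiles 43.3, 0, 59.0 and 74.0 in the order of libraries used above, was nearest to *Hsf4*, *Mrgprg* and *Plec*, at Euclidean distances of 6.53 to 8.20. *Rbpj*, at 0, 22.3, 59.6 and 88.6, was nearest to *Ckap4*, *Igfbp1* and *Ocstamp*, at 6.16 to 6.73. The Non-SMC values of *Rbpj* come from peaks with summits at -2901 and -2924 bp from its outermost start. Its region open in all lines over coding starts, at +123.2 kb, lies outside the 6 kb window. *Hes5*, at 0, 0, 90.8 and 0, was nearest to *Ms4a1*, *Sult3a2* and *Zfp429*, at 0.0738 to 1.10. The value of 90.8 is that of the peak over the start of *Pank4*, so this likeness does not describe the start of *Hes5*.

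Among other genes of the pathway, the list of processing genes, cofactors and targets and that of REST corepressors were mostly open in all lines. The receptors and ligands were less so. Of all protein-coding promoters, 48.7% had a peak in all 4 libraries, 2.45% were non-SMC-only and 3.08% SMC-only. Of 9 receptors and ligands, 4 had promoter peaks in all 4 libraries, and *Notch1* alone was non-SMC-only, at percentiles 57.0 and 74.4 of the Non-SMC lists. *Dll3*, an inhibitory ligand of small cell lung cancer, had peaks in both SMC lines at percentiles 73.0 and 81.3, in Non-SMC line 1 at 22.8 and none in Non-SMC line 2. Of 22 genes for receptor processing, nuclear cofactors and other targets, 17 were open in all 4, and *Rfng*, a glycosyltransferase that modifies the receptors, was the only SMC-only one, at percentiles 14.5 and 4.79. *Lfng*, of the same enzyme family, had no peak in SMC line 1 and percentiles of 78.0, 87.2 and 93.0 in the others. Of 9 corepressors of REST, 7 were open in all 4 and none was called for a type.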

How the data were processed

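ATAC-seq was performed on 2 SMC and 2 Non-SMC lines. Per the methods of the study and the labels, the authors mapped reads to mm10 with Bowtie2 2.3.4, removed duplicates and called peaks with MACS2 2.1.1, once per library; the peak calling settings are not given in the sources used here. The authors deposited for each peak a fold enrichment (a ratio of pileup to local background), p-values and q-values as -log10, the summit and a score that was not used. The listed p-values had no value above 0.01.

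Fragment numbers and local background were recovered from fold enrichment and p-value, given that MACS2 adds 1 to both and takes p from a Poisson distribution, and all peaks were solved within 0.05%. The genome background of a library was its lowest local background, and the implied depth is that value times a genome of 1870000000 bases over the shortest peak. These values cover counting error only. Recovery, overlap and motif search were checked on simulated data. Only the autosomes, X and Y were used, so 61 to 85 peaks per library dropped out. Peaks were joined across libraries where they shared at least 1 base. Genes and starts are from GENCODE M21, genomic sequence from GRCm38.p6, and promoter sequences from RefSeq, in which 4 of the 7 genes were matched (*Hes5*, *Hes6*, *Hey2* and *Rbpj*); *Hes1*, *Hey1* and *Rest* have no entry.

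The genes, lists and tests were chosen with earlier results of these data known. For each gene 2 regions of each type (SMC-only, non-SMC-only) with the highest mean percentile of fold enrichment were to be named, with the genes of the fixed lists and the 3 genes with the most similar promoter percentiles. Further regions are given as values. Group values are mean ± SD over lines, and no test across features was made. Alternatives tried included a stricter q (-log10 of 5 or more), equal list lengths, scaling to the lowest depth, flanks of 20 kb and 100 kb, a reciprocal overlap of 50%, other promoter windows, each library left out and means within lines of the same number. The software was pandas 2.3.3, scipy 1.17.1 and numpy 2.4.6 under Python 3.11.15, with pysam 0.24.0.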

Additional observations from a re-analysis of the deposited data

Results flagged for a closer look

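In 3 results the lines numbered 1 (pair 1) and the lines numbered 2 (pair 2) differed in opposite directions between the types. The difference between the pairs was not tested, and the pairs share only a number. The windows of the 7 genes together held 22 fewer peaks in the SMC line than in the Non-SMC line of pair 1 (a difference of -22), and 7 more in pair 2. At the region +31.7 kb from *Hey2*, open in all lines, the log2 ratio of scaled pileup (SMC over Non-SMC) was 0.80 in pair 1 and -0.60 in pair 2. At the start shared by *Noa1* and *Polr2b*, +44.7 kb from *Rest*, it was 0.90 in pair 1 and -1.07 in pair 2. Regions were listed where the log2 ratio passed 0.5 in size in each pair.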

How the results depend on the processing

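The mean log2 ratio of peak numbers (-0.15) kept its direction except without SMC line 1, where it became 0.21, but its size moved. It was -0.64 under the stricter -log10 q limit of 5, -0.47 after scaling to the lowest depth, -0.45 in covered bases, -0.38 with flanks of 20 kb, -0.08 with flanks of 100 kb, -0.11 per 100000 peaks and -0.17 with lists of equal length. Leaving out each library in turn gave -0.51 to 0.21. The mean within lines of the same number (replicate block) was also -0.15, from -0.39 in pair 1 and 0.09 in pair 2. The pairs share only a number: the shared part of covered bases was 0.192 and 0.176 for lines of different type and the same number, and 0.174 and 0.184 for those of different number. Without a library, a region needs only the other line of its type, so counts rose by construction: SMC-only regions to 10 to 80, non-SMC-only regions to 25 to 70, and regions in all libraries to 20 to 23. The 80 came without SMC line 1 and 36 without SMC line 2, and 70 and 61 non-SMC-only regions came without Non-SMC lines 1 and 2. Non-SMC-only promoters ranged from 0 to 1 and SMC-only promoters stayed at 0, from 0 to 0. Under the stricter -log10 q limit of 5 the counts were 2 SMC-only, 12 non-SMC-only and 6 in all libraries. With flanks of 100 kb they were 20 SMC-only and 36 non-SMC-only, and with flanks of 20 kb 10 regions were in all libraries, as were 11 with a reciprocal overlap of 50%. With lists of equal length, and after scaling to the lowest depth, 1 promoter was non-SMC-only. The share of regions with the RBPJ motif was 8.95% within 50 bp, 40.5% within 250 bp and 8.95% for GTGGGAA, windows and motifs of other lengths by construction.

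By gene, the number of SMC-only minus non-SMC-only regions changed sign in 10 of 63 alternative values. With flanks of 100 kb *Hey1* went from 1 to -3. Without SMC line 1, *Hes1* and *Hes6* went from -3 to 6, *Rbpj* from -8 to 17 and *Rest* from -4 to 3. Without SMC line 2, *Hes1* went to 7 and *Hes6* to 3. Without Non-SMC line 1, *Hey1* went to -4 and *Hey2* from 1 to -1, and without Non-SMC line 2 *Hey1* went to -1. Over the libraries left out in turn, the values ran from -10 to 7 for *Hes1*, -5 to 9 for *Hes5* (0 with all libraries), -6 to 6 for *Hes6*, -4 to 7 for *Hey1*, -1 to 5 for *Hey2*, -26 to 17 for *Rbpj* and -11 to 3 for *Rest*. After scaling to the lowest depth, 6 regions were SMC-only and 21 non-SMC-only, against 6 and 22 as deposited.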
